A study of Mus musculus with 12 samples.

Results

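Acute hippocampal slices that express the overactive phosphatase allele Ptpn11D61Y were compared after stimulation with 4-aminopyridine and bicuculline (S) and in the basal state (B), across every named gene with a mean log2 signal of at least 5 over the 6 Ptpn11D61Y arrays. Of 41345 transcript clusters on the array, 23521 carried 1 gene symbol, and with 1 cluster kept per gene (the brightest) they gave 22180 named genes, of which 16099 met this minimum and are described here. The 3 Ptpn11D61Y mice were 8 to 11 weeks old and heterozygous for the floxed allele Ptpn11floxedD61Y/WT and for Emx1IREScre, in which the Emx1 promoter drives Cre in the excitatory neurons and the astrocytes of the forebrain, so that the slices also hold cells, such as interneurons and microglia, in which it is not driven. Slices of 350 µm recovered for 1 h at 37 °C. They then received either 2.5 mM 4-aminopyridine with 50 µM bicuculline or the solvent DMSO alone for 10 min, and RNA was taken after a further 3 h without drugs. Slices in a chamber came from 1 animal, and the labels number the animals 1, 2 and 3 in both B and S. Equal numbers were taken as the same animal. Control mice were treated the same way in 3 animals. They were used here to ask where the response of the mutant differed, and their arrays also entered the variance of the fit. The labels describe them as carrying the floxed allele without Cre, whereas the study's own text describes them as wild type for Ptpn11 with Cre.

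4-Aminopyridine blocks voltage-gated potassium channels and bicuculline blocks GABAA receptors, and together they drive the excitatory network of a slice into synchronous firing. Calcium entry then activates kinases, ERK among them, which phosphorylate the transcription factors CREB and those at serum response elements. A first wave of immediate early genes (Fos, Egr and Nr4a family members) is followed by late genes that encode secreted and synaptic proteins. Ptpn11 encodes SHP2, a tyrosine phosphatase that passes signals from receptor tyrosine kinases to Ras and ERK, and overactive SHP2 alleles cause Noonan syndrome.

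Markers of excitatory neurons and of the dentate gyrus were present. Camk2a (mean log2 signal 11.96), Slc17a7 (11.11) and the dentate gyrus factor Prox1 (7.88) were well above the minimum in these 6 arrays. Over the 16099 genes, the arrays of animals 2 and 3 correlated with each other at r = 0.961 to 0.987, whereas the B and S arrays of animal 1 correlated with those 4 at 0.851 to 0.894 and with each other at 0.942. Each animal was left out in turn. Ptpn11 itself gave log2 signals of 8.37, 8.79 and 8.69 in B and 8.32, 8.67 and 8.76 in S for animals 1 to 3. Its log2 change was -0.03 ± 0.15 (standard error of the fit, SE, n = 3 animals), and the signal sums the mutant and the normal allele. RNA of a whole slice cannot tell fewer cells of a type from less RNA per cell.

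Stimulation shifted few genes by much in Ptpn11D61Y slices. The change was the difference S minus B within each animal, fitted with limma. A gene passed when it differed by at least 1.5-fold at an unadjusted p under 0.05, the filter of the study. In Ptpn11D61Y S vs. B, 109 of the 16099 genes passed (0.677%), 62 of them higher in S (0.385%) and 47 lower (0.292%), against 1.68% of all 41345 clusters. None passed the Benjamini-Hochberg adjusted threshold of 0.05 in limma (adjusted p = 1), with 363 genes at an unadjusted p under 0.05. The unpaired test of the study's methods, run on the same values, put 262 genes there and likewise none past the adjusted threshold. Calls of single genes below are therefore calls of the filter only. With 3 animals, an exact two-sided test over the signs of the within-animal differences cannot go below p = 0.25.

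The typical gene did not move in a common direction. The median log2 change was 0.01, 53.2% of genes lay above 0, and the median SE was 0.20. The medians of animals 1, 2 and 3 were -0.14, 0.06 and 0.12. Differences within animals were hardly shared over the genes, with r = 0.09 between animals 1 and 2, 0.02 between animals 1 and 3 and 0.18 between animals 2 and 3. Of all genes, 26.9% had 3 differences of one sign, and of the 109 past the filter, 102 did. The filter is computed from these same differences, so the count of 102 is no independent evidence.

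The count and its direction depended on the animals. Without animal 1, 290 genes passed, 260 of them higher. Without animal 2 and animal 3, 144 and 106 passed, with 54 and 42 higher. Leaving out the pairing of slices by animal (no replicate block) gave 46 genes, 12 of them higher, and 39 of the 46 were among the 109. The unpaired one-way test of the study's methods gave 21 genes, 13 of them among the 109. The control arrays mattered as well, since the fit used all 12 arrays. With the 6 Ptpn11D61Y arrays alone 141 genes passed, 46.1% of them higher. Without control animal 1, 150 passed, 46.0% of them higher. Centring each array on its median raised the share of higher genes from 56.9% to 70.8%. Most genes that passed without the pairing were thus lower in S, and most that passed without Ptpn11D61Y animal 1 were higher.

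**Figure D1:**
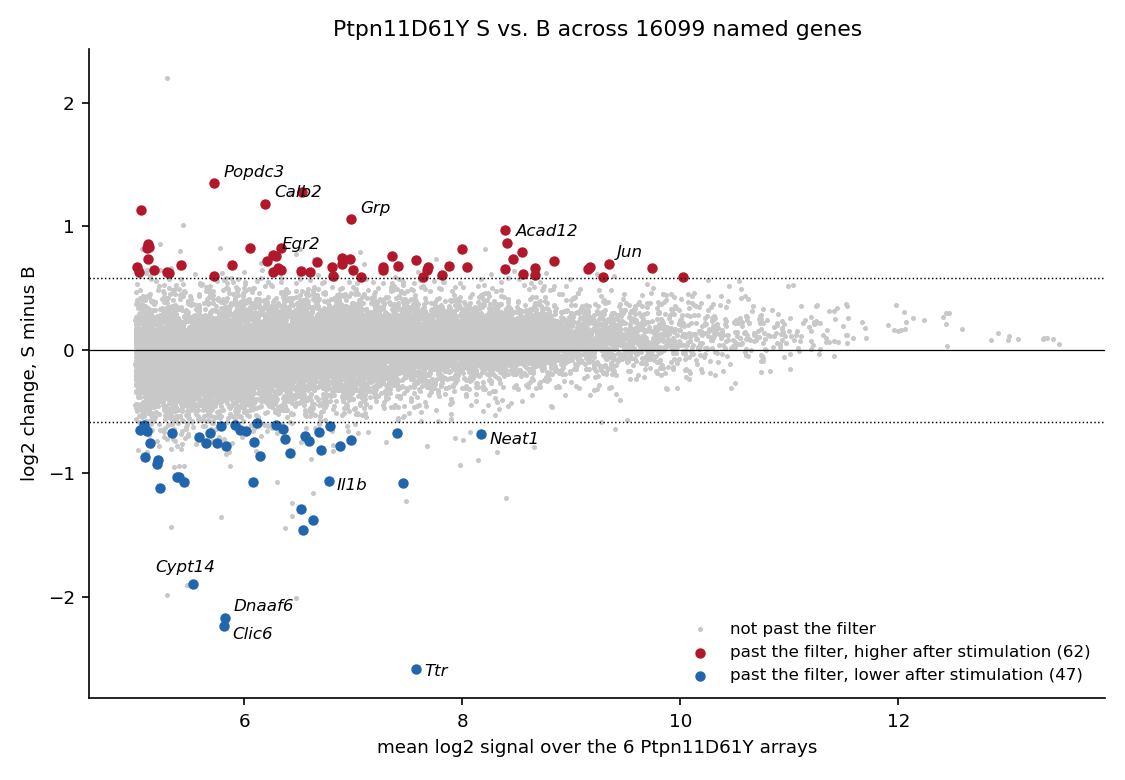
Log2 change (S minus B, y axis) against mean log2 signal (x axis) of each of the 16099 named genes in Ptpn11D61Y slices. Dotted lines mark a fold of 1.5, red and blue points passed the filter (62 higher, 47 lower), and the lowest points include the choroid plexus genes Ttr and Clic6.

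Immediate early genes were slightly higher 3 h after the pulse, and most of that came from animal 3. Of 29 such genes, all measured, 24 lay above 0, 2 passed the filter (both higher) and none passed lower. Their median log2 change was 0.19, against 0.01 over all genes, with medians of -0.14, 0.12 and 0.59 in animals 1 to 3. Without animal 3 the median was -0.03 and no member passed, whereas without animal 1 it was 0.30 and 4 passed. In control slices the median of the list was 0.28, with 0.28, 0.22 and 0.12 by animal. No member passed the filter for a difference between the responses of the 2 genotypes.

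Egr2, a zinc-finger transcription factor of the first wave, had log2 signals of 3.18, 7.64 and 6.83 in B and 4.20, 7.96 and 7.78 in S, a change of 0.77 ± 0.27. Jun, a subunit of the AP-1 factor, had 6.91, 10.30 and 9.78 in B and 7.84, 10.60 and 10.63 in S, a change of 0.70 ± 0.22. Both were higher in S in each of the 3 animals, but their groups overlapped, since the signals of animal 1 lay well under those of the others. Without the pairing neither passed, nor without animal 1 (0.64 and 0.58) or animal 3 (0.67 and 0.62). Nr4a2, a nuclear receptor, and Fosb, an AP-1 subunit, were at 0.46 ± 0.19 and 0.51 ± 0.25 and did not pass.

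The best known members were chosen here after their values were seen. Fos had differences of -0.83, -0.03 and 1.05 in animals 1 to 3, Egr1 of -0.28, 0.21 and 1.11, and Npas4, a factor induced by calcium entry, of 0.15, -0.90 and 1.07. None of the 3 genes passed, and each was higher in animal 3 alone or mainly there. For these genes the basal signal of animal 3 was lower than that of animal 2, while the stimulated signals of both lay close together, as the plot of activity genes shows.

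Late activity genes did not shift together, and 1 of them passed. Of 24 listed, 23 were measured, 11 lay above 0 and the median change was 0.00. Pcsk1, the prohormone convertase that cuts neuropeptide precursors in the secretory pathway, had log2 signals of 7.58, 7.15 and 7.80 in B and 8.09, 8.21 and 8.05 in S. All 3 S arrays were above all 3 B arrays, and the change was 0.61 ± 0.18. It passed without animal 1 (0.65) and without animal 3 (0.79) but not without animal 2 (0.38), nor without the pairing. Syt4, a synaptotagmin of dense-core vesicles, was at 0.29 ± 0.15, Penk, the enkephalin precursor, at -0.37 ± 0.20 and the prostaglandin synthase gene Ptgs2 at -0.26 ± 0.18, none past the filter. Arc and Bdnf, named after their values were seen, were at -0.08 ± 0.20 and -0.04 ± 0.22, less than the spread between animals. The study's initial qPCR time course in slices had found both mRNAs raised at 3 h. For Arc the change in the mutant differed from that in control slices by only 0.015, so it was not shown to respond otherwise there.

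**Figure D2:**
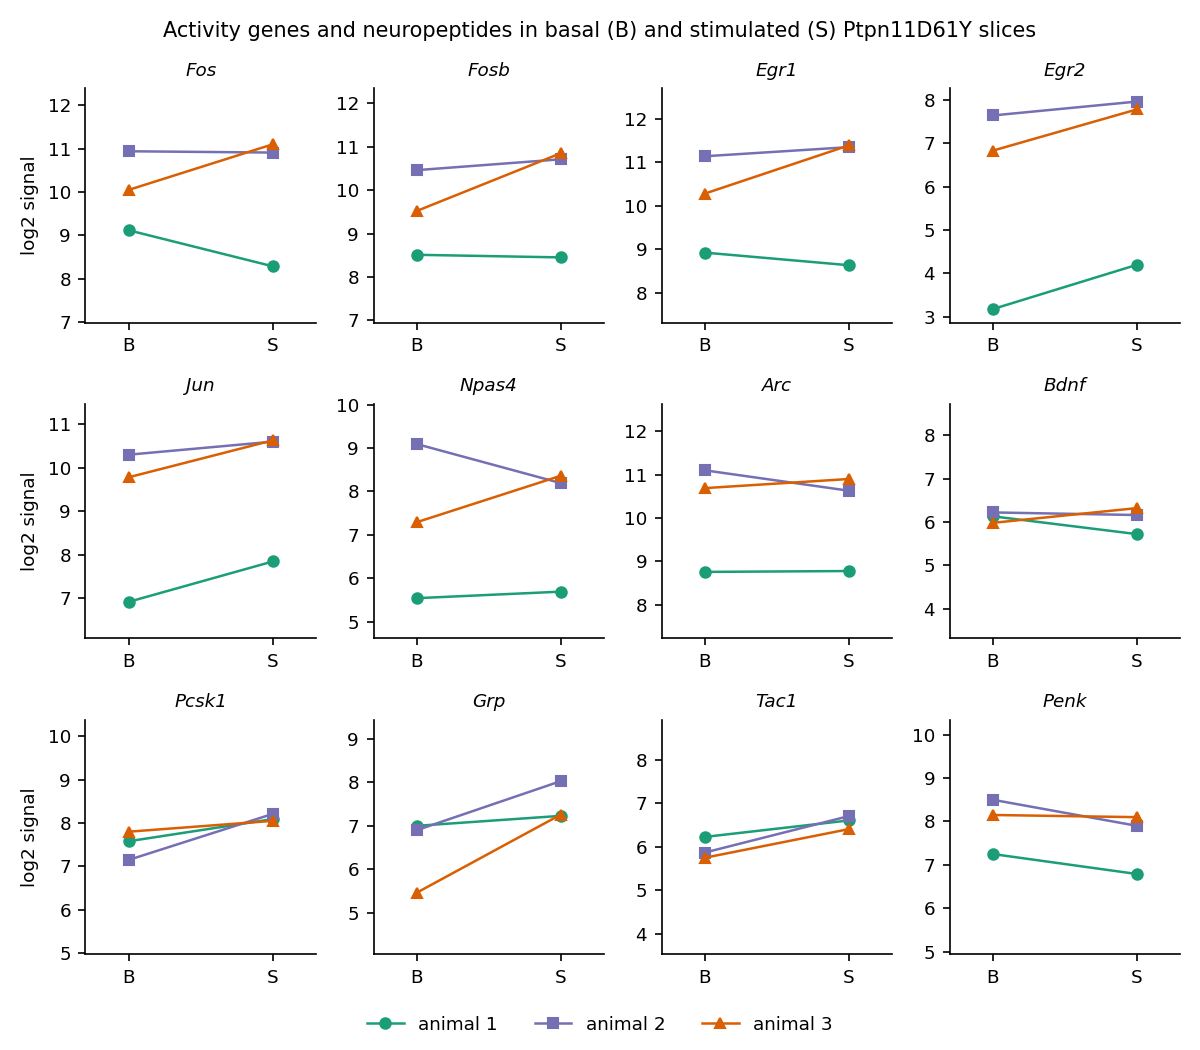
Log2 signals (y axis, same span of units in every panel) of 12 activity genes and neuropeptides in B and S, with 1 line per Ptpn11D61Y animal. Egr2 and Jun are higher in S in all 3 animals, Fos and Egr1 differ in direction between animals, and animal 1 lies under the others in most panels of transcription factors.

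The promoters of Egr2 and Pcsk1, and of the neuropeptide gene Tac1 described below, were chosen because they hold sites to which activity-regulated factors are known to bind. The windows run from 250 bases before to 50 bases from the RefSeq start (build GRCm38.p6), and capitals mark the serum response element, the full cAMP response element TGACGTCA and its core TGACG or CGTCA, which are the same letters on opposite strands. Both strands were searched, and a full element overlaps core matches on each strand.
Egr2 (chr10:67537619-67537918, plus strand): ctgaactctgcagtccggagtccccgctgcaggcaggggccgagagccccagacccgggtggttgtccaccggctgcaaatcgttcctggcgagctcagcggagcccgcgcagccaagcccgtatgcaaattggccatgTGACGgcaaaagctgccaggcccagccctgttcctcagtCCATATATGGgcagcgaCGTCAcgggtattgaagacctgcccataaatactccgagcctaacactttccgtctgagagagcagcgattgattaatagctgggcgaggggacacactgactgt
Pcsk1 (chr13:75089607-75089906, plus strand): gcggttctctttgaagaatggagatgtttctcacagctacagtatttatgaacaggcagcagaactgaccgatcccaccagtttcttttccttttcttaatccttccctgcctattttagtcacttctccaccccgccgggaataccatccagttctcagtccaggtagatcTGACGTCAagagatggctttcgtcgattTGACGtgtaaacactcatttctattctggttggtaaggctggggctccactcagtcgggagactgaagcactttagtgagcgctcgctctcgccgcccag
Tac1 (chr6:7554811-7555110, plus strand): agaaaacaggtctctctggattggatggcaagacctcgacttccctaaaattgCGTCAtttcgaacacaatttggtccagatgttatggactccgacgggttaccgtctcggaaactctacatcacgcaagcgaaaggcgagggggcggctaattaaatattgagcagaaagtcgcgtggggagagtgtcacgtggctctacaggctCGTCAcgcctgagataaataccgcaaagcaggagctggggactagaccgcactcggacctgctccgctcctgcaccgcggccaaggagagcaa
In the Egr2 window, 1 of 5 listed for the gene, the serum response element began 72 bases before the start and lay between cores at 111 and 55. The Pcsk1 window had a full cAMP response element at 78 bases, followed by another core, and the Tac1 window had cores at 197 and 43. Of all 32851 windows of 300 bases, 1.63% hold a serum response element, 1.79% the full cAMP response element and 20.8% its core. The window of Jun and both windows of Etv1, an activity gene described below, held none of these letters. A match is a description of sequence and not of binding.

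Among 18 listed neuropeptide genes, 17 were measured, 11 lay above 0 and 2 passed, both higher. The median change was 0.09, or -0.08 without animal 3. Grp, gastrin-releasing peptide, had log2 signals of 7.00, 6.90 and 5.46 in B and 7.23, 8.03 and 7.26 in S, a change of 1.06 ± 0.36. Tac1, the precursor of substance P, had 6.23, 5.87 and 5.75 in B and 6.61, 6.71 and 6.41 in S, a change of 0.63 ± 0.22. For both, every S array was above every B array. Neither passed without animal 2 (1.02 and 0.52) or without animal 3 (0.68 and 0.62), and neither passed without the pairing. The receptor gene Sstr1, which encodes a receptor for somatostatin, had 6.01, 5.39 and 5.52 in B and 6.37, 6.82 and 6.22 in S, a change of 0.83 ± 0.28 that was 0.53 and did not pass without animal 2.

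Of the genes of ERK signaling, 1 passed. Among 17 measured targets and feedback inhibitors of ERK, 10 lay above 0, the median was 0.03 and 1 passed. That was Etv1, an ETS transcription factor, with signals of 7.75, 9.29 and 8.06 in B and 8.11, 9.63 and 9.19 in S. Its change of 0.61 ± 0.24 was 0.35 without animal 3, and it did not pass then or without the pairing. The phosphatase Dusp6 and the ETS factor Etv5 were at 0.23 ± 0.21 and 0.24 ± 0.23. Of 17 measured genes of the Ras-ERK chain itself none passed. Their median was 0.10, with Map2k1, the kinase that activates ERK, at 0.33 ± 0.22 and the Ras exchange factor Sos1 at 0.22 ± 0.14.

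Of 22 measured genes in the list of receptor tyrosine kinases and Ngfr, 1 passed and the median was 0.00. Fgfr4, a fibroblast growth factor receptor, was lower, with signals of 6.09, 5.93 and 5.80 in B and 5.13, 5.31 and 5.27 in S and a change of -0.70 ± 0.29. All B arrays were above all S arrays and the 3 differences lay close together (SD 0.23), yet it did not pass with any 1 of the 3 animals left out. Of 21 measured ligand genes of these receptors, only Igf2 passed (-1.08 ± 0.44). Its signal in B was 7.14, 7.18 and 9.66, so that animal 3 carried the difference, and without that animal the change was -0.41. Of 16 measured Stat, Jak and Socs genes none passed.

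By the rule of smallest p among genes with 3 differences of one sign, 12 higher and 12 lower genes were taken, leaving out predicted and clone-named genes, chemosensory receptors and antigen receptor segments. Popdc3, which encodes a membrane protein with a cAMP-binding Popeye domain, came first among the higher. Its log2 signals were 5.37, 5.62 and 4.15 in B and 6.37, 6.59 and 6.24 in S, a change of 1.35 ± 0.32, and its groups did not overlap. It was the 1 gene of these 24 that passed without each animal in turn, without each array and without the pairing, and under all other settings tried.

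Rit2, a small GTPase of the Ras family found in neurons, changed by 0.82 ± 0.20. Slc25a22, a mitochondrial glutamate carrier, Nipsnap1, a mitochondrial protein, and Ak4, a mitochondrial adenylate kinase, changed by 0.65 ± 0.16, 0.60 ± 0.17 and 0.74 ± 0.21. Rab3b, a GTPase of synaptic vesicles, changed by 0.68 ± 0.20, and Gabra3, a GABAA receptor subunit, by 0.72 ± 0.20. In each of these the 3 animals had one sign but the groups overlapped.

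Calb2 encodes calretinin, a calcium-binding protein of interneurons and of hilar mossy cells. Its signals were 6.91, 4.80 and 5.09 in B and 7.08, 7.08 and 6.20 in S. The change of 1.19 ± 0.34 came from animals 2 and 3, with a difference of only 0.17 in animal 1. Krt222 (0.67 ± 0.17), Nkrf, a repressor of NF-kB (0.65 ± 0.16), the kinase gene Cdkl4 (0.66 ± 0.17) and the small nucleolar RNA Snora20 (0.86 ± 0.25) completed the 12. Snora20 had the most even response, with differences of 0.77, 0.90 and 0.89, but did not pass with an offset of 16 on the linear signal (0.57). Only 2 of the 12, Popdc3 and Calb2, passed without the pairing, and 12, 8 and 6 of the 12 passed without animal 1, 2 and 3. By the unpaired one-way test of the study's methods only Popdc3 of the 12 passed. Those lost without animal 2 were Cdkl4, Gabra3, Rab3b and Calb2, the last at 0.64, and those lost without animal 3 were Slc25a22, Nkrf, Krt222, Nipsnap1, Rab3b and Ak4, the last at 0.49.

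**Figure D3:**
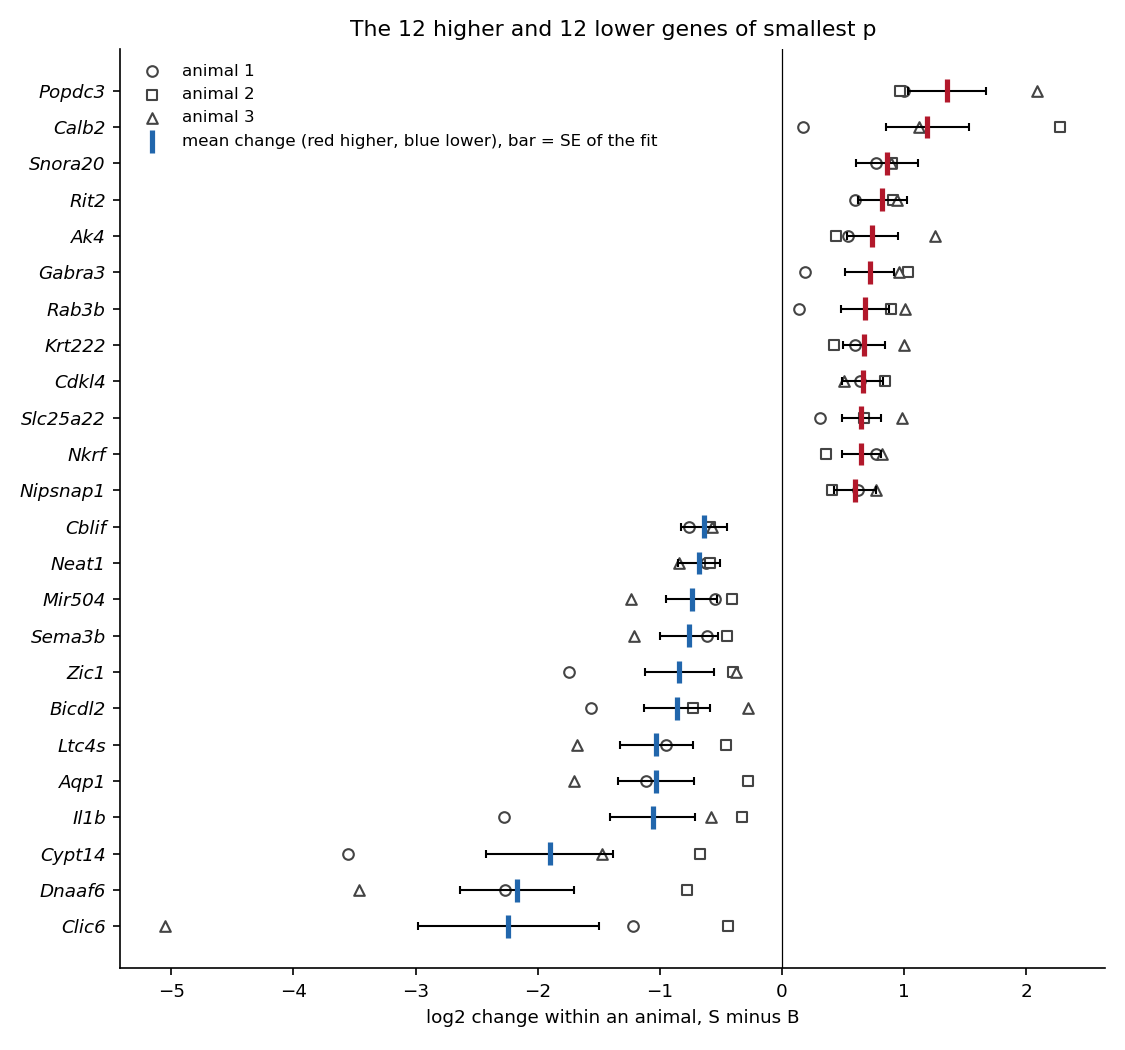
Differences S minus B within each of 3 Ptpn11D61Y animals (symbols, log2 units on the x axis) for the 12 higher and 12 lower genes of smallest p, with the mean and the SE of the fit. Snora20, Neat1 and Cblif are the most even across animals, and Clic6, Dnaaf6 and Cypt14 the most spread.

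Neat1, the long non-coding RNA that forms the core of paraspeckles in the nucleus, was lower by a similar amount in each animal. Its log2 signals were 8.69, 8.32 and 8.52 in B and 8.07, 7.73 and 7.69 in S, a change of -0.68 ± 0.17, and the groups did not overlap. It passed without each animal in turn (-0.71, -0.73 and -0.61) but not without the pairing in limma, at the same estimate. By the unpaired one-way test of the study's methods it did pass. Bicdl2, an adaptor of dynein transport, had 6.96, 6.52 and 6.25 in B and 5.40, 5.79 and 5.97 in S, and its change of -0.86 ± 0.27 became -0.51 without animal 1. Zic1, a zinc-finger factor, changed by -0.84 ± 0.28, or by -0.39 without animal 1, and Sema3b, a secreted semaphorin, by -0.76 ± 0.24. Cblif, which encodes the cobalamin-binding intrinsic factor, changed by -0.64 ± 0.19.

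Dnaaf6, which helps to assemble the dynein arms of cilia, was another gene that passed without each animal, with signals of 7.64, 5.00 and 8.08 in B and 5.37, 4.22 and 4.62 in S (-2.17 ± 0.47). Cypt14, a gene of the testis, had 9.0, 4.95 and 5.48 in B and 5.45, 4.28 and 4.00 in S (-1.90 ± 0.52). The basal levels of both were uneven, and Cypt14 no longer passed without animal 1 (-1.07). Of the 12 lower genes, 7 had groups that did not overlap, as did 4.06% of all genes. Without the pairing in limma 10 of the 12 passed, all but Neat1 and Il1b. By the unpaired one-way test of the study's methods only Neat1 and Bicdl2 of the 12 passed. Lost without animal 1 were Cypt14, Cblif, Bicdl2, Il1b and Zic1, and lost without animal 3 were Mir504, Ltc4s, Aqp1, Sema3b and Clic6.

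The microRNA gene Mir504 was also among the lower. The mature strand, from RefSeq (GRCm38.p6, chrX:59097705-59097726, minus strand), is shown with its seed, bases 2 to 8, in capitals because the seed sets which transcripts it pairs with.
mmu-miR-504-5p: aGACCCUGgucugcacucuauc
The cluster on the array reads the transcript of the gene and cannot tell the hairpin from the mature form. Its signals were 7.27, 7.02 and 6.60 in B and 6.72, 6.61 and 5.36 in S, a change of -0.74 ± 0.21, and -0.48 without animal 3, where it did not pass. Of 483 microRNA genes on the array, 176 met the minimum signal. Among these 41 lay above 0 and 135 below, with a median of -0.14 (-0.07 after centring the arrays), and Mir504 alone passed.

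Markers of the choroid plexus, the epithelium of the ventricles that makes cerebrospinal fluid, had the largest median change of the 43 lists, and it lay in 1 basal array. Of 14 marker genes on the array 12 were measured, all 12 lay below 0, 4 passed (all lower), and the median was -1.11. By animal the medians were -0.17, -0.16 and -3.33. The summed linear signal of the 12 was 884, 942 and 16675 in B and 738, 840 and 927 in S for animals 1 to 3. Ttr, transthyretin, had log2 signals of 6.42, 7.18 and 13.01 in B and 6.32, 5.83 and 6.70 in S. The B array of animal 3 thus stood far above the other 5.

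Clic6, a chloride channel protein, had 5.60, 5.21 and 9.98 in B and 4.39, 4.77 and 4.93 in S, and Sostdc1, a secreted BMP antagonist, had 6.64, 5.98 and 9.33 in B and 5.99, 5.99 and 5.84 in S. Aqp1, the water channel of this epithelium, was less extreme, with 5.75, 5.17 and 6.75 in B and 4.65, 4.89 and 5.05 in S. The changes of Ttr, Clic6, Sostdc1 and Aqp1 were -2.59 ± 1.01, -2.24 ± 0.74, -1.38 ± 0.59 and -1.03 ± 0.31. Without animal 3 they were -0.73, -0.83, -0.32 and -0.70, none of the 4 passed, and the median of the list was -0.19, with Ace, the angiotensin-converting enzyme, then past the filter as higher. Chosen after their values were seen, Ace had differences of 0.61, 0.63 and -3.27 and Kl, which encodes Klotho, of -0.09, -0.11 and -3.39.

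**Figure D4:**
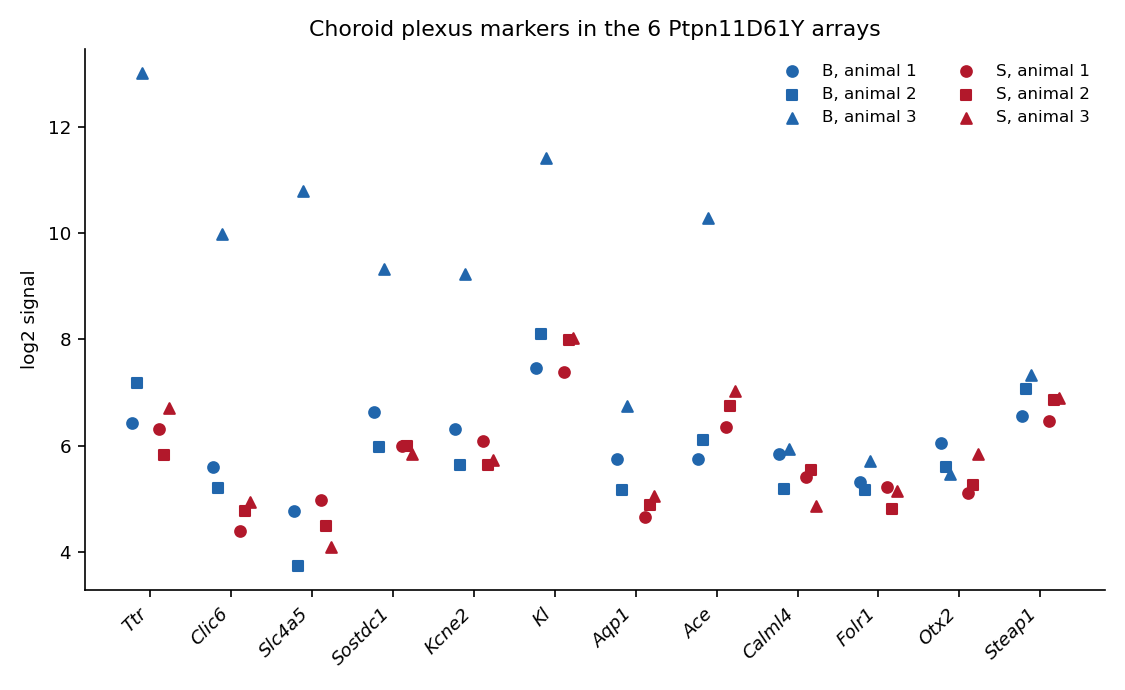
Log2 signals (y axis) of the 12 measured choroid plexus markers in each of the 6 Ptpn11D61Y arrays, blue for B and red for S. For 8 of the 12 the B array of animal 3 is well above all others, Ttr at 13.01 being the highest.

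Single genes of neighbouring tissues were also lower mainly in animal 3, but the medians of the meningeal and collagen lists did not follow that animal. The medians of the meningeal fibroblast list were -0.28, 0.06 and -0.25 in animals 1 to 3. Its summed signal was 1756, 1133 and 2600 in B and 1531, 1596 and 1568 in S. Medians of the collagen list were -0.30, -0.06 and 0.00. The 13 measured endothelial markers did follow animal 3, with medians of -0.08, -0.10 and -0.44 by animal. Their median was -0.21, or 0.03 without animal 3, and none passed. Slc13a4, a sulfate transporter of meningeal and choroid cells, changed by -1.29 ± 0.54 and by -0.29 without animal 3. The collagen gene Col9a3 changed by -1.08 ± 0.37 and by -0.48 without it. The differences of Igf2, given above, of Ltc4s and of Sema3b were also largest in that animal, and Sema3b was at -0.53 without it. Whether choroid plexus tissue in the slices accounts for these genes was not tested. The 8 measured ependymal markers all lay below 0, with a median of -0.34 and medians of -0.48, -0.05 and -0.63 by animal. None passed, with the ciliary regulator Foxj1 at -0.41 ± 0.18 and Lrrc23 at -0.65 ± 0.35.

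Excitatory neuron markers were higher in S mainly in animal 3. Of 15 measured excitatory neuron markers, 12 lay above 0, with a median of 0.28 and medians of 0.07, 0.06 and 0.59 by animal. Ccn3, a secreted matrix protein of pyramidal cells, passed with 8.54, 9.56 and 8.43 in B and 9.08, 9.94 and 9.51 in S (0.67 ± 0.21), but not without animal 3 (0.46). Tbr1, a transcription factor of glutamatergic neurons, and Calb1, calbindin, were at 0.56 ± 0.22 and 0.55 ± 0.24 without passing. Without animal 3 the median of this list was 0.00. The summed signal of the markers in the B array of animal 3 was 9649, against 15023 in B of animal 2 and 15239 in S of animal 3. This is the array with the choroid plexus sum of 16675, and the part of that tissue in the neuronal values was not tested.

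Interneuron markers had a similar median. Of 17 measured markers 16 lay above 0, with a median of 0.24 and 1, Calb2, past the filter. Medians were -0.16, 0.43 and 0.44 by animal. Nos1, the neuronal nitric oxide synthase, was at 0.54 ± 0.24 and Vip, vasoactive intestinal peptide, at 0.36 ± 0.19, neither past the filter. The medians of both neuron lists in control slices, 0.32 and 0.24, were close to those of the mutant. Astrocyte, oligodendrocyte and microglia markers had medians of 0.05, -0.01 and -0.02, and none of their members passed. After centring the arrays the last pair were at 0.06 and 0.04.

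The receptors and channels that the drugs act on, and their relatives, showed few calls. Of 13 measured GABA receptor genes, 11 lay above 0 with a median of 0.19, which was -0.20, 0.06 and 0.62 by animal and -0.02 without animal 3. Gabra3 passed, with 7.11, 7.41 and 7.12 in B and 7.30, 8.44 and 8.07 in S. Its B signals were even, and the difference came from animals 2 and 3 (1.03 and 0.96, against 0.19 in animal 1). Without animal 2 it was at 0.57 and did not pass. Gabrd, the subunit of extrasynaptic receptors, was higher in all 3 animals by 0.61, 0.34 and 0.24 but under the fold of the filter. Of 21 measured voltage-gated potassium channel genes none passed and the median was 0.18, or 0.01 without animal 3. Kcnc2, a channel of fast-spiking cells, and Kcnq5, a channel of the M current, came nearest with 0.58 ± 0.22 and 0.51 ± 0.18. Of 20 measured glutamate receptor genes none passed, and 17 lay above 0 with a median of 0.08, or 0.02 without animal 3.

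Inflammatory genes were lower in part. Of 19 measured cytokine and NF-kB target genes, 14 lay below 0, the median was -0.23 and 1 passed. Il1b, interleukin 1 beta, had log2 signals of 5.63, 7.94 and 8.34 in B and 3.35, 7.61 and 7.76 in S. The change of -1.06 ± 0.35 rested on animal 1, without which it was -0.45 and did not pass. Il1a, interleukin 1 alpha, was more even, with differences of -0.54, -0.58 and -0.45 (-0.52 ± 0.21), and the chemokine genes Cxcl2 and Ccl4 were at -0.51 ± 0.21 and -0.45 ± 0.19, none of them past the fold of 1.5. The list's median was -0.35, -0.20 and -0.22 in animals 1 to 3, and after centring the arrays it was -0.16. Without animal 3, 3 members passed, all lower.

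Ltc4s, the enzyme that makes leukotriene C4, had 5.62, 5.34 and 6.78 in B and 4.67, 4.88 and 5.10 in S. Its groups did not overlap, and the change was -1.03 ± 0.30, or -0.70 without animal 3, where it did not pass. It was the 1 of 9 measured leukotriene pathway genes to pass. The other 8 had changes from -0.35 (the receptor Ltb4r1) to 0.14 (the hydrolase Lta4h). Heat shock genes lay above 0 in 13 of 13 measured with a median of 0.16, none past the filter, and by animal their medians were -0.21, 0.17 and 0.48.

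Small nucleolar RNAs, which guide the modification of ribosomal RNA, lay above 0 in 48 of 62 measured. Their median was 0.17, with medians of -0.31, 0.26 and 0.38 by animal, and 2 passed. Snora20 had signals of 5.75, 4.13 and 4.18 in B and 6.52, 5.03 and 5.07 in S, and Snora28 had 6.24, 5.27 and 6.03 in B and 6.50, 6.79 and 6.41 in S (0.72 ± 0.29). In B of animals 2 and 3 Snora20 lay under 5, the minimum set for the mean. Snora28 did not pass without animal 2 (0.32). Without animal 1 the list had 9 members past the filter, all higher, and without animal 3 a median of -0.03. Mitochondrial ribosomal protein genes lay above 0 in 58 of 68, with 27 higher in all 3 animals, as were 2404 of all 16099 genes. Their median was 0.13, with medians of -0.06, 0.17 and 0.30 by animal, against 0.26 in control slices. Respiratory chain genes lay above 0 in 59 of 74 with a median of 0.12, or 0.01 without animal 3. No gene of either list passed.

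Among olfactory receptor genes, 184 of 1105 on the array met the minimum signal. Of these 1 passed higher, Olfr8 (0.83 ± 0.35), and 4 lower, Olfr1145, Olfr1428, Olfr1502 and Olfr96, with changes from -0.75 to -0.65. Over all genes 0.385% passed higher and 0.292% lower. None of the 5 passed with each animal left out in turn, and Olfr8 and Olfr96 failed in all 3 cases. The median was -0.14. Their summed signal was 25029 and 20490 in the B and S arrays of animal 1 and 11702 to 13001 in the other 4. Olfactory receptor genes resemble each other in sequence, and probes can share signal between them.

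From the study's longer list for this comparison, 47 genes were taken, so that they are a part of it. They had been selected on these same arrays, and their counts are no independent evidence. Of the 46 with a named cluster, 18 met the minimum signal. Of these 5 passed higher (Popdc3, Sstr1, Tac1, Rsph3b and Wdr55) and 5 lower (Neat1, Bicdl2, Fgfr4, Mpzl2 and Tal1). Rsph3b, a radial spoke protein of cilia, and Wdr55 changed by 0.63 ± 0.27 and 0.63 ± 0.26. Mpzl2, an adhesion protein, and Tal1, a transcription factor of blood and of some neurons, changed by -0.66 ± 0.28 and -0.62 ± 0.26. Tal1 had signals of 6.14, 6.05 and 6.09 in B and 5.56, 5.49 and 5.38 in S, and yet Tal1 and Rsph3b did not pass with any 1 of the 3 animals left out. Wdr55 was at 0.42 without animal 2 and Mpzl2 at -0.45 without animal 1. Among the other 8, Tppp2 (-0.74 ± 0.33), Pjvk (-0.72 ± 0.33), Lrrc23 and Postn (-0.66 ± 0.32) were past the fold but not the p, Krt77 (0.55 ± 0.18), Nagk (0.51 ± 0.19) and Ngfr (0.47 ± 0.28) were higher under the fold, and Mir669i was at -0.09 ± 0.23.

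Where the response of Ptpn11D61Y slices differed from that of control slices was tested as the difference of the 2 changes in the same fit. By the same filter 69 of the 16099 genes passed (0.429%), 48 with the more positive response in Ptpn11D61Y and 21 with the more negative, and none past the adjusted threshold in limma (adjusted p = 1), with 82 genes at an unadjusted p under 0.05. The count was 331 without control animal 2, 163 without control animal 3 and 41 without the pairing. The S array of control animal 1 had the lowest median signal of the 12 arrays (36.5) and the most clusters at the floor (2188). Without that animal 73 genes passed, 49.3% of them with the more positive response. Centring the arrays moved the share of more positive responses from 69.6% to 50.0%. That share was 91.6%, 40.5% and 32.9% without mutant animal 1, 2 and 3, so that its direction turned with the animals. Of the 109 genes past the filter in Ptpn11D61Y S vs. B, 12 also passed here, and 97 were not shown to respond otherwise than in control slices. Of the 57 genes that passed here alone, 47 had the larger change in control slices.

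Under the same exclusions, the genes of smallest p with the more positive response were Kcnh8, Acad12, Arl9, Etd, Zfp300 and Msx3. Acad12, an acyl-CoA dehydrogenase, was the 1 of them that also passed in the mutant. Its log2 signals were 7.74, 8.28 and 7.90 in B and 9.09, 8.70 and 8.74 in S, a change of 0.87 ± 0.26 against -0.39 in control slices, a difference of 1.26 ± 0.37. The change in the mutant was 0.63 and did not pass without animal 1, while the difference passed without each mutant animal. Kcnh8, a potassium channel of the ether-a-go-go family, had differences of 0.89, -0.07 and 0.40 in the mutant animals and a mean of -0.95 in control. Its difference of 1.36 ± 0.35 came for the larger part from the lower signal in stimulated control slices, and it passed under each of the 19 settings tried.

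Among the more negative responses, Col8a2, which encodes a short-chain collagen, had 6.22, 5.19 and 5.57 in B and 5.03, 4.68 and 4.51 in S in the mutant (-0.92 ± 0.32) and a mean difference of 0.74 in control, a difference of -1.66 ± 0.45. Neat1 was at -0.68 in the mutant and 0.11 in control (-0.80 ± 0.24). Nkd1, an inhibitor of Wnt signaling, Adh5, Hadhb, an enzyme of fatty acid oxidation, and Cypt14 followed, with differences of -0.92 ± 0.33, -0.60 ± 0.22, -1.42 ± 0.56 and -1.85 ± 0.74. These 4 did not pass without mutant animal 1, where Cypt14 was at -1.03, or without animal 3. For Egr2, Jun and Etv1 the differences were 0.07, 0.22 and 0.00, so that the changes of these activity genes in the mutant were not shown to differ from those of 0.70, 0.48 and 0.61 in control.

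**Figure D5:**
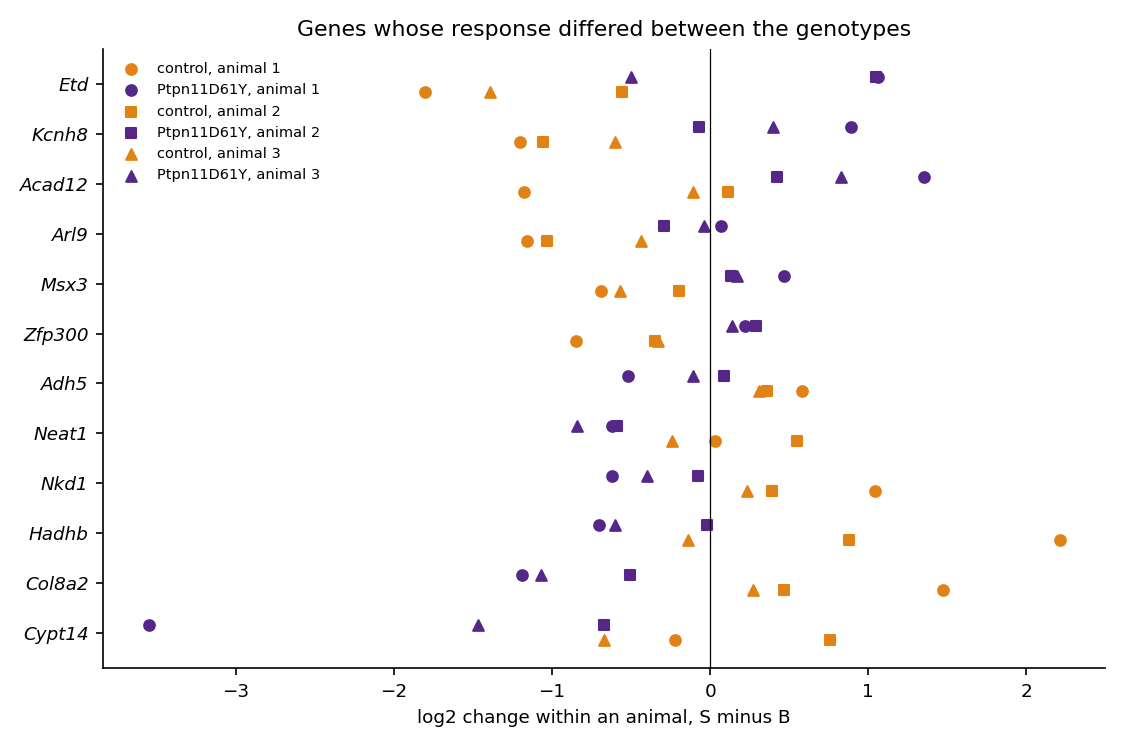
Differences S minus B (log2 units, x axis) within each of 3 control (orange) and 3 Ptpn11D61Y (purple) animals for the 6 genes of smallest p each way in the test of the response difference, leaving out predicted and clone-named genes and chemosensory receptors (Olfr8 among them). Col8a2, Nkd1, Msx3 and Zfp300 have all animals of one genotype on one side of 0 and all of the other on the opposite side.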

How the data were processed

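Signal intensities of 41345 transcript clusters on 12 Affymetrix Mouse Gene 2.0 ST arrays were deposited on a linear scale by the authors, who per the methods corrected the background and used quantile normalization with PLIER in Expression Console. Values were floored at 1 and taken to log2. Clusters were named through GEO's annotation of the platform, where 1820 clusters had several symbols and 16004 had none. Promoters and the microRNA came from RefSeq tables.

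Changes were fitted with limma 3.58.1 in R 4.3.3 on all 12 arrays, with the animal as a fixed block, a variance trend and 4 residual degrees of freedom. The pairing by animal comes from the animal numbers in the labels. Deviations of arrays of the same animal correlated at 0.758, 0.671 and 0.393 in Ptpn11D61Y and 0.182, -0.0273 and 0.1097 in control, but B of animal 2 with S of animal 3 reached 0.599 and 0.206 and B of animal 3 with S of animal 2 reached 0.432 and 0.182, so that these values do not separate animals 2 and 3. The methods used a one-way ANOVA without this block, tried as an alternative with Tukey bi-weight averages. Other alternatives were an offset of 16, centred or requantiled arrays, other variance priors, other minimum signals, and leaving out each animal or array. Precision is limited by the number of arrays.

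The code was tested on simulated data. Members and the 43 gene lists were chosen with earlier results of these data known. Named were the 12 higher and 12 lower genes of smallest p, list members past the filter and the 4 of largest t in lists spoken of, the study's list, and 6 genes each way for the response difference. Predicted and clone-named genes, chemosensory receptors and antigen receptor segments were left out of the rankings by p.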

Additional observations from a re-analysis of the deposited data

Results flagged for a closer look

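Among the genes taken by the naming rule, 22 met one of a pair of criteria for a different response in Ptpn11D61Y and control slices, 20 by the filter in the test of the difference and 8 with all 3 animals of one genotype above 0 and all 3 of the other below. None passed the Benjamini-Hochberg adjusted threshold in limma (adjusted p = 1). The naming rule had itself taken 6 genes each way for their smallest p in this test, so the count of 20 is in part fixed by selection. The count of 8 was not set against a share over all genes. Values are response differences on the log2 scale, Ptpn11D61Y minus control.

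The 2 genes that did not pass the filter but had all animals in opposite directions were Fgfr3, a fibroblast growth factor receptor of astrocytes, at 0.35 and Foxc1, a transcription factor of meningeal cells, at -0.42. The olfactory receptor gene Olfr8 had a difference of 2.42, the largest of the 22, also with all animals opposite.

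More positive in Ptpn11D61Y were Acad12 at 1.26, Arl9 at 0.79, Etd at 1.79, Kcnh8 at 1.36, Msx3 at 0.74, Zfp300 at 0.72 and Nrg1, a ligand of ErbB receptors, at 0.64. Metabolic genes Adh5 and Hadhb were at -0.60 and -1.42. Of genes that were also lower in S in the mutant, Bicdl2 was at -0.89, Col8a2 at -1.66, Cypt14 at -1.85, Dnaaf6 at -1.64, Ltc4s at -1.01, Mpzl2 at -0.96 and Neat1 at -0.80. Cdkn1a, the cell cycle inhibitor p21, was at -0.78, Nkd1 at -0.92 and the enkephalin precursor Penk at -0.66.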

How the results depend on the processing

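In Ptpn11D61Y S vs. B, 109 genes passed in the reported analysis. Without the replicate block that pairs slices of 1 animal 46 passed, with an offset of 16 there were 64, by the methods' unpaired one-way test 21, without a minimum signal 185, with a minimum of 6 there were 72, and with animals 2 and 3 alone, a setting chosen after seeing the data, 363. Leaving out each animal gave 94 to 290, and leaving out each Ptpn11D61Y array without the block 41 to 204, with 46 and 63 without the S and the B array of animal 3. For the response difference, with 69 genes, the counts were 41 without the block, 45 without a variance trend, 164 without a minimum signal, 36 with a minimum of 6 and 118 with animals 2 and 3 alone. Leaving out each animal gave 73 to 331, and each array without the block 30 to 160, among them 33 without the S array of animal 1 or animal 3 and 35 without the B array of animal 2. Without the block and the S array of animal 1, Il1b was at 0.38, and without the block and the B array of animal 1, Egr2 was at -0.59 and Jun at -0.35, each with its sign turned. The cause of these shifts was not tested, apart from the settings that test fewer genes or arrays. Only 50 named genes and 12 response differences, chosen among those past the filter, were followed through the settings. Of their values by setting, 788 kept direction and call, 487 kept direction but lost the call and 3 reversed.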
